A study of Mus musculus with 2 samples.

Results

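The 9 genes described here, whose products are made by the conducting airways, were followed through the single-cell RNA-seq of Cebpa fl/fl and Cebpa ΔSftpc mouse lungs: Scgb1a1, Scgb3a1, Scgb3a2, Bpifa1, Bpifb1, Reg3g, Muc5b, Cyp2f2 and Sult1d1. They were taken by symbol, and 9 of 9 were found among the 32285 genes of each library. Their high levels in a handful of cells had put them together, so their levels and the difference between the libraries are given as a description. Cebpa ΔSftpc mice carried floxed Cebpa and Sftpc-CreERT2, a tamoxifen-inducible Cre driven by the surfactant protein C promoter, which is active in alveolar type 2 (AT2) cells. Control mice were Cebpa fl/fl without Cre. Both genotypes received 5 daily tamoxifen injections of 75 mg/kg, with later weekly rounds where mice were kept for long, and lungs were collected 26 weeks after the first injection. The study used mice of 3 months of age unless stated otherwise, and 3 mice per genotype went into 1 library, in which cells could not be assigned to a mouse. The 2 libraries are called control and ΔSftpc here. Each genotype was therefore 1 sample, no difference between genotypes had a replicate check, and no p-value was computed. Intervals are exact 95% intervals that cover counting error only.

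Club cells, the main secretory cells of the mouse bronchioles, make Scgb1a1 (club cell secretory protein) and Scgb3a2, both small secreted secretoglobins. Scgb3a1 is another secretoglobin, and Muc5b is the gel-forming mucin of airway mucus. Bpifa1 and Bpifb1 are secreted BPI-fold proteins of the upper airways, and Reg3g is an antibacterial C-type lectin. Cyp2f2 is the cytochrome P450 of club cells that activates naphthalene, and Sult1d1 is a cytosolic sulfotransferase. The libraries counted unique molecular identifiers (UMIs) at the 3′ ends of transcripts, so levels were compared without scaling to gene length.

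The upstream sequence of 4 genes is shown because Scgb3a1, Bpifa1, Bpifb1 and Reg3g were found together in the same few ΔSftpc cells. Each line gives the 250 bases before the RefSeq start site on GRCm38.p6, 5′ to 3′ on the strand of the gene. Capitals mark matches to TATAAA, to the forkhead motif TGTTTAC, to the NKX2 motif CAAGTG or to the C/EBP motif TTNNGCAA, searched on both strands. No matches overlapped. The Scgb3a1 window is chr11:49663345-49663594 on the plus strand, that of Bpifa1 chr2:154142630-154142879 on the plus strand, that of Bpifb1 chr2:154190568-154190817 on the plus strand, and that of Reg3g chr6:78468875-78469124 on the minus strand.
Scgb3a1: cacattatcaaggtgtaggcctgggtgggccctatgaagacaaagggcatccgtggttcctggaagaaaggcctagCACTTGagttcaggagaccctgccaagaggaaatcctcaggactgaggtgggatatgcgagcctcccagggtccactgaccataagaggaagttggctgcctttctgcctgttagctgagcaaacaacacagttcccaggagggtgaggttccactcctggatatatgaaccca
Bpifa1: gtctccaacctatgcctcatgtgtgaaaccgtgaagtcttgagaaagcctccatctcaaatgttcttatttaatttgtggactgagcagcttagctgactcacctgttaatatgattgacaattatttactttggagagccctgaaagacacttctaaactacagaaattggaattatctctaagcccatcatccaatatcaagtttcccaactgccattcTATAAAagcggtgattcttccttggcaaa
Bpifb1: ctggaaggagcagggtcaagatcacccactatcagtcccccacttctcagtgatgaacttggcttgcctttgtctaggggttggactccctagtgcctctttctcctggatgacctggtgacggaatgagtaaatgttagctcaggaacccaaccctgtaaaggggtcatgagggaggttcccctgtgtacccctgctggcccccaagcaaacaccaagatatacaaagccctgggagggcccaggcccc
Reg3g: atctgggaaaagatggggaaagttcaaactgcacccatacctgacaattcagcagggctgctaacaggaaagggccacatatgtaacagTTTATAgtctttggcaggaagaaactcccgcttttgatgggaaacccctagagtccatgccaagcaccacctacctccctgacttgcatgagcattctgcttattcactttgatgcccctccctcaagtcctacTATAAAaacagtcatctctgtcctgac
Bpifa1 and Reg3g held a TATAAA 29 and 27 bases before the start, and Reg3g a further one on the opposite strand 161 bases before it. Scgb3a1 held CAAGTG on the opposite strand 174 bases before its start, and Bpifb1 held none of the 4 motifs. Among 6 members with a RefSeq promoter, 2 held TATAAA, 2 CAAGTG, 0 TGTTTAC and 0 TTNNGCAA in these windows. Of all 32851 promoters of the same length, 12.4% held TATAAA, 11.6% CAAGTG, 3.17% TGTTTAC and 9.56% TTNNGCAA. Scgb1a1, Scgb3a2 and Muc5b had no entry. Bpifa1 and Bpifb1 both lie on chromosome 2, spanning positions 154142880-154149219 and 154190818-154220369 of GRCm38 (GENCODE M21). All 9 genes are annotated as protein-coding.

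After cells with under 200 genes or over 20% mitochondrial UMIs were removed, 11487 control cells (68802017 UMIs, median 4835 per cell) and 13238 ΔSftpc cells (64452208 UMIs, median 2607) remained. The libraries shared 45 barcodes, and none of them was a cell high in the 9 genes. Cebpa had 153 CPM (counts per 1000000 UMIs) in the AT2-like cells of the control library and 105 CPM in those of the ΔSftpc library. AT2-like cells were at a median of 21077.5 UMIs in the first library and 1458.5 in the second, and the part of this gap in the results below was not tested.

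The 9 genes gave 178926 UMIs in the control library, 0.26% of all its UMIs, and 328724 in the ΔSftpc library, 0.51%. Scgb1a1 made up 94.3% and 90.3% of them. Very few cells held these transcripts: 6 cells of the control library and 3 of the ΔSftpc library held 50% of all Scgb1a1 UMIs. The control library had 168689 Scgb1a1 UMIs and its top 3 cells had 24673, 15473 and 14417. The ΔSftpc library had 296854, with 63182, 60585 and 47737 in its top 3. In the latter, 9 cells held 90% of Scgb1a1, against 94 cells in the control library.

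In the ΔSftpc library the other members apart from Cyp2f2 had 50% of their UMIs in 1 or 2 cells, while in the control this number varied from gene to gene. Scgb3a2 had 2095 UMIs in the control library, 50% of them in 4 cells, and 14276 in the ΔSftpc library, 50% in 2 cells. Scgb3a1 had 849 UMIs, spread so that 23 cells were needed for 50%, against 8768 UMIs with 58.8% in 1 cell. The 4 scarce members, Bpifa1, Bpifb1, Reg3g and Muc5b, had 71, 16, 13 and 17 UMIs in the whole control library. Their totals in the ΔSftpc library were 835, 927, 1079 and 502, and 1 cell held 65.4% of Bpifa1, 81.0% of Bpifb1, 86.8% of Reg3g and 79.9% of Muc5b. Cyp2f2 was the most widely spread, with 50% of 6905 UMIs in 70 cells in the control library and 50% of 5312 in 6 cells in the ΔSftpc library. Sult1d1 had 271 and 171 UMIs, 50% of them in 10 and 2 cells.

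**Figure D1:**
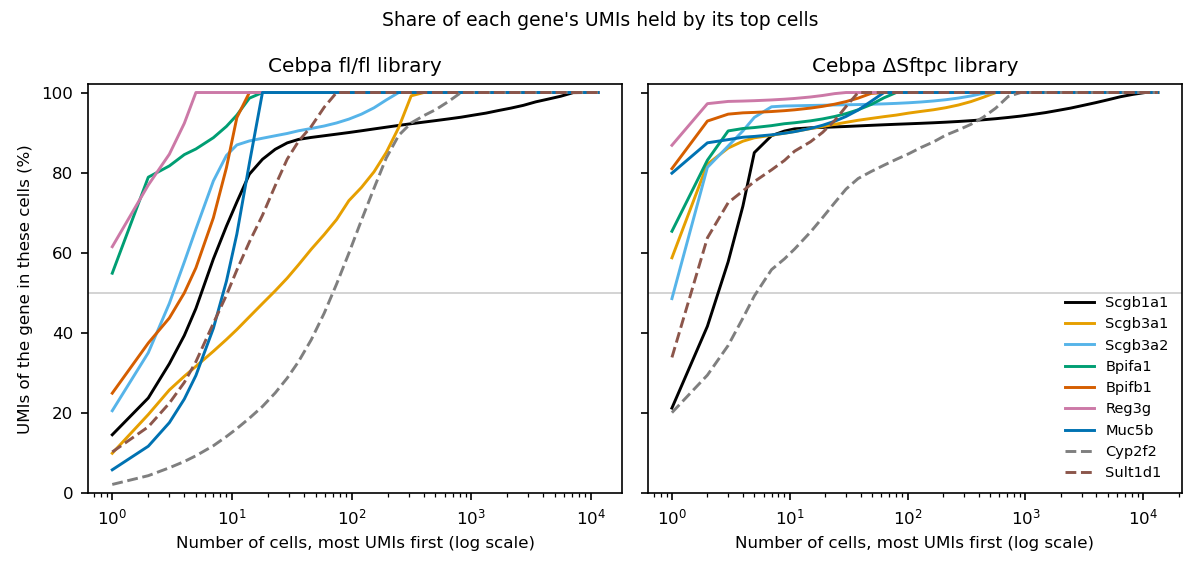
The percent of each gene's UMIs (vertical axis) held by its top cells, counted from the cell with the most UMIs on a log axis, for the 2 libraries, with a grey line at 50%. In the ΔSftpc library the curves start between 20.1% (Cyp2f2) and 86.8% (Reg3g) in 1 cell. In the control library they start between 2.23% (Cyp2f2) and 61.5% (Reg3g, with 13 UMIs in all). Cyp2f2 (dashed grey) needed 70 cells for 50% in the control library.

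A cell was called secretory-high when the 9 genes together had at least 100 UMIs and at least 5% of its UMIs. This gave 21 of 11487 control cells (0.183%, Clopper-Pearson interval 0.113–0.279%) and 10 of 13238 ΔSftpc cells (0.0755%, 0.0362–0.139%). They held 80.6% and 90.4% of all UMIs of the 9 genes. The lowest share inside the threshold was 5.42% in the control library and 10.6% in the ΔSftpc library, and the highest share among cells with at least 100 such UMIs outside it was 4.68% and 2.85%. A range of 5.42–85.3% of a cell's UMIs came from the 9 genes in the control cells (median 39.4%) and 10.6–76.4% in the ΔSftpc cells (median 62.2%). Leaving out the 8% of cells with the highest Scrublet doublet scores took away 8 of the 21 and 9 of the 10, which left 13 cells and 1 cell, and the share of UMIs they held in the ΔSftpc library became 11.2%.

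These cells were deep. Their median was 16452 UMIs in the control library and 51221.5 in the ΔSftpc library, where the deepest 3 had 160434, 104255 and 102977. In summed counts, 23 of the 34 listed club and mucous genes stood higher in these cells than in all other control cells. In the ΔSftpc library 26 of the 34 did, and all 11 listed epithelial genes did in both. The share of all genes that stood higher was not computed, so nothing is read from these counts. The cells compared against were of all types, and endothelial-like cells made up 57.5% and 35.2% of the libraries. Fmo2 (126 against 604 CPM and 222 against 273 CPM) and Cyp4b1 (206 against 732 CPM and 237 against 453 CPM) were among those lower in both libraries. Cbr2 (carbonyl reductase) was at 6576 against 852 CPM in the control library and at 4009 against 194 CPM in the ΔSftpc library. Wfdc2 (a secreted antiprotease-like protein) was at 4100 against 579 CPM and at 6164 against 133 CPM, and Hp (haptoglobin) at 1910 against 101.5 CPM and at 3094 against 124 CPM. The epithelial adhesion gene Epcam was at 140 against 66.0 CPM and at 198 against 30.3 CPM. It had a UMI in 12 of the 21 control and 7 of the 10 ΔSftpc secretory-high cells. No cluster met the marker rule for club cells, but the rule could hardly find them. Secretory-high cells were left out of the profiles that named clusters, and the club markers were kept out of the genes used to cluster. Whether club cells formed a cluster was thus not tested. The secretory-high cells of the control library fell into cluster 4, which stayed unnamed (11 cells), the AT2-like cluster (5), ciliated-like clusters (3), platelet or megakaryocyte-like cells (1) and the unnamed cluster 28 (1). Those of the ΔSftpc library fell into cluster 4 (6 cells), AT2-like (2), AT1-like (1) and ciliated-like (1). Cluster 4 was led by Ccl5, Tpm1 and Stmn1 and was shallow, with medians of 1414 and 1350 UMIs, so its other cells are no model of the secretory ones. The members and the listed club and mucous genes were kept out of the genes used to cluster.

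**Figure D2:**
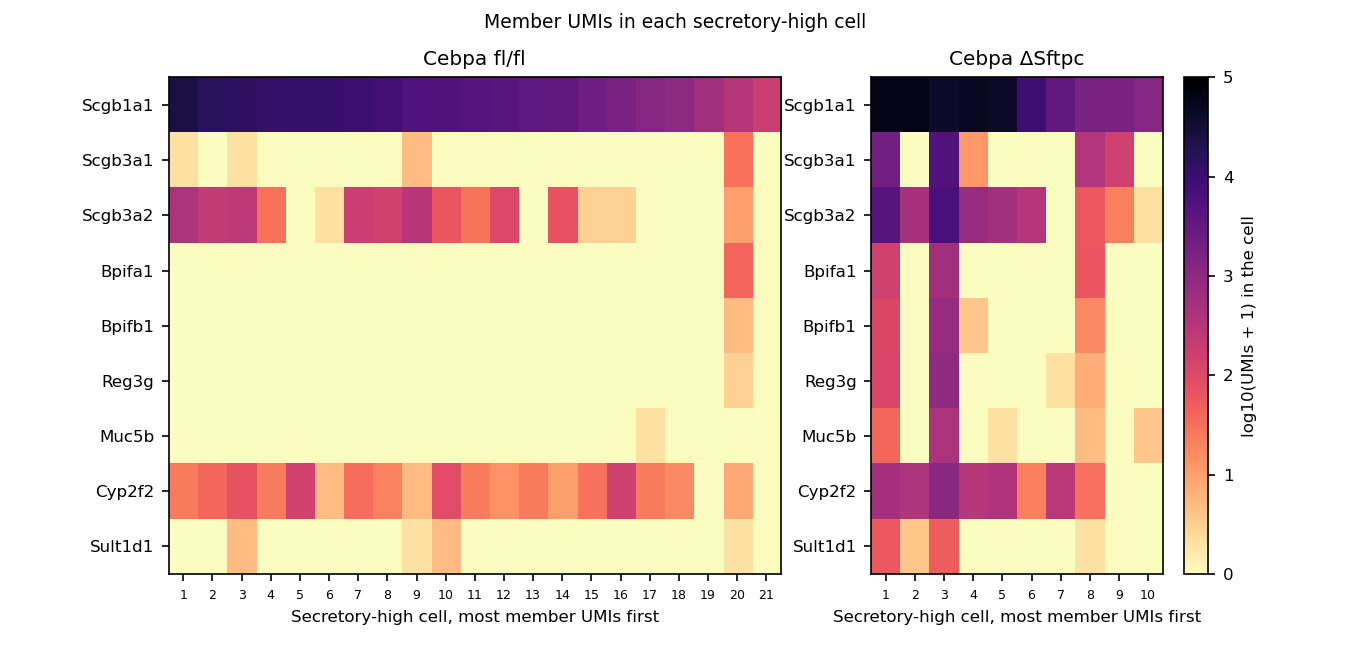
UMIs of the 9 genes (rows, as log10 of UMIs + 1) in each of the 21 control and 10 ΔSftpc secretory-high cells (columns, most UMIs of the 9 genes first). Scgb1a1 is filled in all 31 columns, while Bpifa1 is filled in 1 control cell and 3 ΔSftpc cells.

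Within the secretory-high cells Scgb1a1, Scgb3a2 and Cyp2f2 were in most cells. Each of the other genes was in at most 4 of 21 control and 5 of 10 ΔSftpc cells. Of the 21 control cells, 21 had a Scgb1a1 UMI (169–24673), 19 a Cyp2f2 UMI, 15 a Scgb3a2 UMI and 4 each a Scgb3a1 and a Sult1d1 UMI. Muc5b had 1 UMI in 1 of the 21 cells. Bpifa1, Bpifb1 and Reg3g each had a UMI in 1 other, and it was the same cell: a shallow one of 1054 UMIs, with 324 Scgb1a1, 39 Bpifa1, 29 Scgb3a1, 9 Scgb3a2, 7 Cyp2f2, 4 Bpifb1, 2 Reg3g and 1 Sult1d1. That cell alone held 54.9% of the Bpifa1 UMIs of the library.

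Of the 10 ΔSftpc cells, 10 had Scgb1a1 (1186–63182), 9 Scgb3a2, 8 Cyp2f2, 5 Scgb3a1, 5 Muc5b, 4 each Bpifb1, Reg3g and Sult1d1, and 3 Bpifa1. The deepest cell, with 160434 UMIs and 9819 genes, had 39625 Scgb1a1, 6936 Scgb3a2, 5153 Scgb3a1, 1070 Cyp2f2, 937 Reg3g, 751 Bpifb1, 546 Bpifa1, 401 Muc5b and 51 Sult1d1 UMIs. It clustered with AT1-like cells and also had 186 UMIs of the fibroblast list and 100 of the AT1 list. The cell of 104255 UMIs had 60585 Scgb1a1, 4674 Scgb3a2, 2048 Scgb3a1, 497 Cyp2f2, 148 Bpifa1, 112 Reg3g, 110 Bpifb1, 58 Sult1d1 and 38 Muc5b. A further cell of 4575 UMIs had 1713 Scgb1a1, 352 Scgb3a1, 61 Bpifa1, 57 Scgb3a2, 29 Cyp2f2, 16 Bpifb1, 6 Reg3g, 4 Muc5b and 1 Sult1d1. These 3 cells had all 9 genes.

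Other cells with as much Scgb1a1 had next to none of the scarce genes. The cell with the most Scgb1a1 (63182 of 102977 UMIs) had 482 Scgb3a2, 393 Cyp2f2 and 3 Sult1d1 UMIs and 0 of Scgb3a1, Bpifa1, Bpifb1, Reg3g and Muc5b. It carried 192 UMIs of the ciliated list. The cells of 69286 and 67760 UMIs had 47737 and 41200 Scgb1a1 and 759 and 538 Scgb3a2 UMIs, with 11 and 0 of Scgb3a1, 0 and 0 of Bpifa1 and 0 and 1 of Muc5b.

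As a description over the 10 ΔSftpc cells, all of 1 library, the Spearman correlation of log2(CPM + 10) was 0.90 for Bpifa1 with Bpifb1, 0.90 for Bpifa1 with Reg3g and 0.72 for Scgb3a1 with Bpifa1. Bpifa1 had a UMI in 3 of the 10 cells, and each of these pairs had both genes in those 3 alone. The Spearman correlation was 0.10 for Scgb1a1 with Scgb3a2 and −0.51 for Scgb1a1 with Bpifa1. In the same order, the Pearson correlations of these pairs were 0.97, 0.955, 0.76, 0.66 and −0.22. The 2 measures thus differed for Scgb1a1 with Scgb3a2. Scgb1a1 took 9.84–69.5% of the UMIs of these cells, and the more it takes the lower the CPM of every other gene. Over the 21 control cells Scgb1a1 with Scgb3a2 gave a Spearman correlation of 0.58 and a Pearson correlation of 0.70. Pairs of the scarce genes rested on 1 cell there.

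Scgb3a2 per 1000 Scgb1a1 UMIs varied widely between cells. It was 175 in the deepest ΔSftpc cell, 77.1 in the cell of 104255 UMIs and 7.63 in the one with ciliated genes. In the secretory-high cells of cluster 4 it ran from 0.0899 to 53.1 in the control library and from 0.843 to 77.1 in the ΔSftpc library. The 5 control cells of the AT2-like cluster stood at 0, apart from a cell at 0.869. Of the 11 control secretory-high cells of cluster 4, only that at 0.0899 lay below 0.869, and the next lowest stood at 2.44. The 5 AT2-like cells had 1011–11374 Scgb1a1, 0–2 Scgb3a2, 16–151 Cyp2f2 and 1817–5271 UMIs of the AT2 gene Sftpc. The secretory-high cells of cluster 4 in the control library had 4–11 Sftpc UMIs. The 2 ΔSftpc cells of the AT2-like cluster stood at 0 and 13.06, with 1–4 Sftpc UMIs.

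AT2-like cells were also counted whether inside or outside the threshold. Among 464 control AT2-like cells, 17 had at least 100 Scgb1a1 UMIs and 16 of these also had at least 1000 Sftpc UMIs. The 16 cells had 26052 Scgb1a1 UMIs and 3 Scgb3a2 UMIs in total, and 14 of them had no Scgb3a2 UMI. This was 0.115 Scgb3a2 per 1000 Scgb1a1 UMIs, against 12.96 over all secretory-high cells of the library. The 5 secretory-high AT2-like cells are part of both values. They are among the 16, with 11374, 3734, 2302, 1201 and 1011 of the Scgb1a1 UMIs, so the ratio rests largely on cells already described. For all 16 cells, depth was set against the other AT2-like cells. The median depth of the 16 was 25898.5 UMIs, against 20825 in the other 447 AT2-like cells, which had a median of 2 Scgb1a1 UMIs. Of 512 AT2-like cells of the ΔSftpc library, 4 had at least 100 Scgb1a1 UMIs, and 2 of them had at least 1000 Sftpc UMIs, with 857 Scgb1a1 and 0 Scgb3a2 UMIs together.

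Summed over all kept cells, 6 of the 9 genes were at least 2-fold higher in the ΔSftpc library and 0 at least 2-fold lower. Over all genes with at least 50 UMIs in the 2 libraries together, 9.52% were at least 2-fold higher and 10.0% at least 2-fold lower. As the 9 genes were named with these ratios known, nothing is read from their count. On the log2 scale, ΔSftpc over control, Reg3g stood at 6.47 (95% interval 5.69–7.38), Bpifb1 at 5.95 (5.24–6.76), Muc5b at 4.98 (4.28–5.77), Bpifa1 at 3.65 (3.30–4.02), Scgb3a1 at 3.46 (3.36–3.57) and Scgb3a2 at 2.86 (2.80–2.93). Scgb1a1 stood at 0.91 (0.90–0.92), Cyp2f2 at −0.28 (−0.34 to −0.23) and Sult1d1 at −0.57 (−0.85 to −0.29). The median of the 9 was 3.46, against −0.08 over all genes. These are ratios of sums in which 1 or 2 cells hold much of the UMIs of most of these genes. Without the 2 cells of each library with the most UMIs of the gene (chosen after the data were seen), the log2 ratio was 3.42 for Reg3g, 2.82 for Bpifb1, 2.17 for Muc5b, 3.33 for Bpifa1, 1.29 for Scgb3a1, 1.07 for Scgb3a2, 0.52 for Scgb1a1, −0.72 for Cyp2f2 and −1.77 for Sult1d1. For Reg3g this set 30 UMIs against 3, so its interval ran from 1.73 to 5.77.

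Summed over all types outside the secretory-high cells, Scgb1a1 was nearly level between the libraries, at 27122 and 27359 UMIs and a log2 ratio of 0.11 (0.09–0.14). Among the 8 members with at least 50 UMIs there, 4 were at least 2-fold higher in the ΔSftpc library, against 9.43% of all genes: Bpifb1 (12 and 47 UMIs, log2 ratio 2.07), Muc5b (16 and 55, 1.88), Bpifa1 (32 and 80, 1.42) and Scgb3a2 (260 and 486, 1.002). Cyp2f2 (6162 and 2373 UMIs, −1.28) and Sult1d1 (261 and 58, −2.07) were at least 2-fold lower, against 10.2% of all genes. Reg3g had 11 and 23 UMIs, too few to be counted among the 8. Within types the Scgb1a1 log2 ratio ran from −0.55 in AT1-like to 1.09 in platelet or megakaryocyte-like cells. It was 0.76 in endothelial-like and −0.05 in AT2-like cells, which held 8739 and 1875 of the Scgb1a1 UMIs. The make-up of the cells differed, with 216 ciliated-like cells at a median of 16590 UMIs in the control library and 513 at 1300 in the ΔSftpc library. Its part in the summed Scgb1a1, Cyp2f2 and Sult1d1 ratios was not tested.

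**Figure D3:**
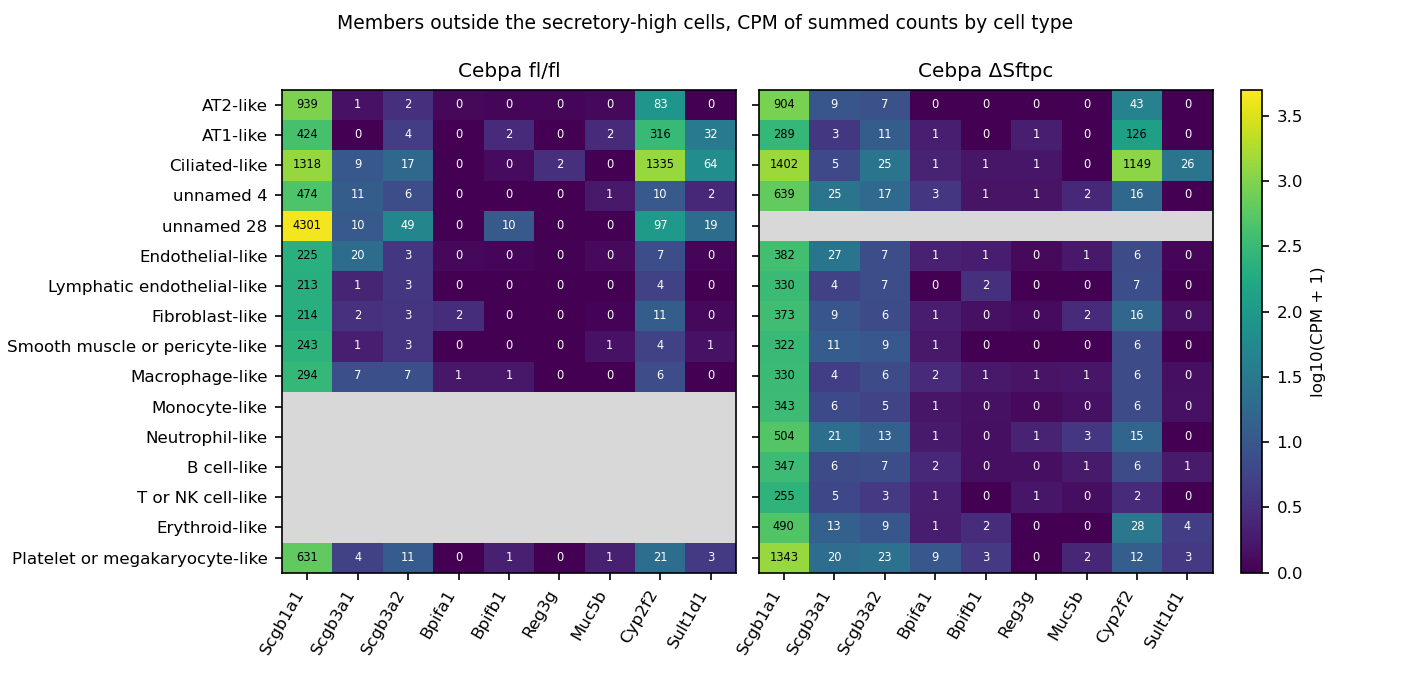
CPM of summed counts (printed in each field, colour as log10 of CPM + 1) of the 9 genes in every cell type with at least 50 cells of a library, secretory-high cells left out; grey fields had too few cells. Cyp2f2 stands out in ciliated-like cells at 1335 and 1149 CPM, Scgb1a1 is above 200 CPM in every type, and the scarce genes are below 10 CPM throughout.

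Scgb1a1 was found in most cells of every named type outside the epithelium. In the 6 named control types that are not epithelial and had at least 50 cells, 55.7–64.7% of cells had a Scgb1a1 UMI, at 1.10–1.41 UMIs per cell. In 11 such types of the ΔSftpc library 59.1–88.3% had one, at 1.02–3.28 UMIs per cell. The unnamed clusters were not counted among these: in cluster 4, 47.2% of 729 control and 58.1% of 956 ΔSftpc cells had a Scgb1a1 UMI, and in cluster 28, 94.9% of 137 control cells. Platelet or megakaryocyte-like cells, with medians of 1092 and 1563 UMIs, stood highest at 631 CPM (581–685) and 1343 CPM (1256–1435). They had 1.10 and 3.28 Scgb1a1 UMIs per cell, the lowest of the 6 types in the control library and the highest of the 11 in the ΔSftpc library. Erythroid-like cells of the latter, at a median of 1381 UMIs, stood at 490 CPM, and fibroblast-like cells, at 1649 UMIs, at 373 CPM. The lowest were lymphatic endothelial-like cells of the control library at 213 CPM and T or NK cell-like cells of the ΔSftpc library at 255 CPM. With each cell thinned to 1000 UMIs, the share with a Scgb1a1 UMI ran from 19.0 to 40.2% and from 24.7 to 69.3%. Endothelial-like cells, which are not airway epithelium, served as the background. Their Scgb1a1 level was 225 CPM (220–230) in the control library and 382 CPM (374–389) in the ΔSftpc library, with a UMI in 61.4% of cells at a median depth of 5003 UMIs and in 79.6% at 5521.5. Thinned to 1000 UMIs these shares were 19.7% and 33.2%, with 142 and 245 shallower cells left out.

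**Figure D4:**
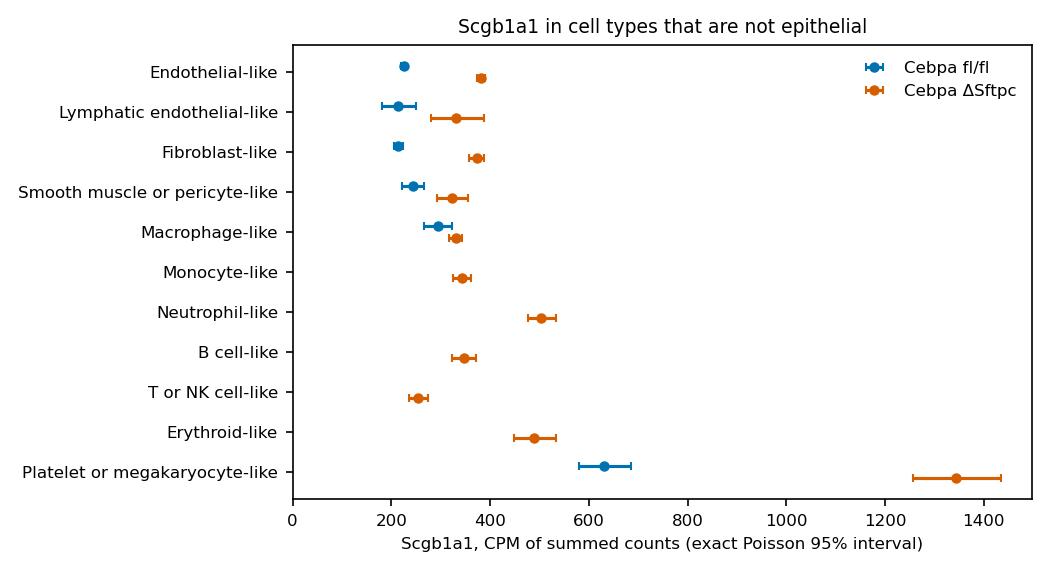
Scgb1a1 as CPM of summed counts (horizontal axis) in each cell type that is not epithelial, control (Cebpa fl/fl) in blue and Cebpa ΔSftpc in orange, with exact Poisson 95% intervals. In the 6 types measured in both libraries the ΔSftpc value is the higher, from 294 against 330 CPM in macrophage-like cells to 631 against 1343 in platelet or megakaryocyte-like cells.

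The background of the 9 genes together in endothelial-like cells was 255 CPM (250–260) and 424 CPM (417–432), a log2 ratio of 0.74 (0.70–0.77). Of the 4 members with at least 50 UMIs there, 1 was at least 2-fold higher in the ΔSftpc library, against 3.50% of 13115 genes, and 0 at least 2-fold lower, against 1.84%. It was Scgb3a2, at 108 and 186 UMIs (2.96 and 6.69 CPM, log2 ratio 1.18, 0.83–1.53). Scgb1a1 stood at 0.76, Scgb3a1 at 0.45 and Cyp2f2 at −0.15 (−0.44 to 0.14), whose interval holds 0. The scarce genes were at the edge of detection: Bpifa1 had 7 and 33 UMIs in 6607 and 4664 cells, Bpifb1 6 and 27, Muc5b 9 and 22, and Reg3g 2 and 7. The interval of the log2 ratio lay above 0 for Bpifa1 (1.43–4.05), Bpifb1 (1.26–4.13) and Muc5b (0.51–2.98), and ran from −0.52 to 4.20 for Reg3g with its count of 2 raised to 3.

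The ratios among the genes in endothelial-like cells were put next to those of the secretory-high cells of the same library, leaving out endothelial-like cluster 10. Per 1000 Scgb1a1 UMIs, Scgb3a2 stood at 12.96 in the secretory-high cells of the control library and at 13.04 in its endothelial-like cells. In the ΔSftpc library it stood at 51.2 and 17.6. There 2 secretory-high cells, at 175 and 77.1, held 81.3% of all Scgb3a2 UMIs, and the other secretory-high cells stood at 0–35.2. Reg3g in that library stood at 3.92 and 0.718, while Bpifa1 (2.80 and 3.08), Bpifb1 (3.27 and 2.46) and Muc5b (1.66 and 1.85) lay closer. Of the UMIs in its secretory-high cells, the deepest cell held 937 of 1056 for Reg3g and 751 of 880 for Bpifb1. It also held 546 of 755 for Bpifa1 and 401 of 447 for Muc5b. Scgb3a1 stood at 28.6 and 32.1, but endothelial-like cells are no background for this gene. In the other named ΔSftpc types that are not epithelial it ran from 11.5 in macrophage-like to 40.8 in neutrophil-like cells. Of the 50 Scgb3a1 UMIs of the neutrophil-like cells, 27 were in 1 cell. Fibroblast-like cells stood at 23.3. The part of endothelial Scgb3a1 outside cluster 10 in the value of 32.1 was not tested. In the control every member set against Scgb1a1, apart from Scgb3a2, stood lower in secretory-high than in endothelial-like cells. Scgb3a1 stood at 0.247 and 41.7 (11.1 in fibroblast-like cells), and Cyp2f2 at 5.25 and 29.5. Bpifa1 stood at 0.275 and 0.913, Bpifb1 at 0.0283 and 0.652, Reg3g at 0.0141 and 0.261, Muc5b at 0.00706 and 1.17 and Sult1d1 at 0.0706 and 0.391. The values from Bpifa1 to Sult1d1 rested on 1–39 UMIs in secretory-high and 2–9 in endothelial-like cells.

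Cyp2f2 was mostly outside the secretory-high cells of the control library. Ciliated-like cells, which carry the motile cilia of the airway, held 69.3% of its UMIs there, AT2-like cells 11.2% and secretory-high cells 10.8%. In the ΔSftpc library the order was reversed, with 55.3% in the secretory-high cells and 31.6% in ciliated-like cells. The level within ciliated-like cells was 1335 and 1149 CPM, and different clusters made up the type in the 2 libraries. Cluster 27 held 175 control and 31 ΔSftpc cells, all with a Cyp2f2 UMI, at 1379 CPM (1339–1421) and 1646 CPM (1553–1744). Cluster 17 held 38 and 481 cells at 986 CPM (892–1087) and 688 CPM (631–750), with a median of 7660 and 1268 UMIs. The 2 clusters thus differed between the libraries in opposite directions. Against 6.66 and 6.01 CPM in endothelial-like cells, both clusters stood far above the background. Cluster 27 had the cilium gene Foxj1 in 175 of 175 and 31 of 31 cells, and the endothelial gene Cdh5 in 70 and 15 of them at 75.9 and 51.2 CPM. Cluster 17 had Foxj1 in 35 of 38 control and 103 of 481 ΔSftpc cells, and Cdh5 in 15 and 287 of them at 247 and 725 CPM. Most ciliated-like cells of the ΔSftpc library thus lay in a cluster in which endothelial and cilium genes were both found, with 523 Cyp2f2 UMIs against 1158 in cluster 27, and the part of this in the Cyp2f2 and Sult1d1 levels of the type was not tested.

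AT2-like cells had Cyp2f2 at 83.0 CPM (77.3–89.1) in the control library, with a UMI in 42.5% of 459 cells, and at 43.4 CPM (34.9–53.3) in the ΔSftpc library, with a UMI in 9.22% of 510. Thinned to 1000 UMIs the shares were 5.02% and 2.16%. In the control library 15 of the 459 cells had at least 10 Cyp2f2 UMIs and held 391 of the 773. These 15 cells also had 5644 Scgb1a1 UMIs. No AT2-like cell of the ΔSftpc library had more than 6 Cyp2f2 UMIs. The part of the 15 cells in the difference between the libraries was not tested. In AT1-like cells of the control library 2 of 117 cells held 167 of 170 Cyp2f2 UMIs, and these 2 cells had 1 UMI of the AT1 gene Ager between them. In those of the ΔSftpc library 1 cell held 76 of 124 Cyp2f2 UMIs, and it had no Ager UMI.

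Sult1d1 followed Cyp2f2. Ciliated-like cells held 84.9% of its 271 UMIs in the control library, at 64.2 CPM, and 22.2% of its 171 UMIs in the ΔSftpc library, at 25.97 CPM. It was in 23.4% of 175 cluster 27 cells in the first library, with 214 UMIs, and in 25.8% of 31 in the second, with 32 UMIs. In the ΔSftpc library 66.1% of its UMIs lay in the secretory-high cells, 58 and 51 of them in the 2 cells rich in the scarce genes. No Sult1d1 UMI was captured in 459 control AT2-like cells, which allows a share of cells with a UMI of up to 0.654%, nor in 510 ΔSftpc ones, up to 0.588%. These limits hold for captured UMIs at median depths of 21017 and 1457 UMIs, not for expression of the gene.

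Most Scgb3a1 UMIs of the control library were in endothelial-like cells, which made up 57.5% of its cells. They held 84.2% of the 849 Scgb3a1 UMIs of that library and secretory-high cells 4.12%. Endothelial-like cells also had 9 of its 17 Muc5b UMIs, no more than their share of the cells. Endothelial-like cells of the ΔSftpc library had a like number of Scgb3a1 UMIs, 745 against 715, but these were 8.5% of 8768. Endothelial-like cluster 10 stood highest, at 131 CPM (118–145) in the control library and 160 CPM (145–175) in the ΔSftpc library, with a UMI in 12.8% of 445 and 23.7% of 329 cells. Its next leading genes were Esm1, a proteoglycan of activated endothelium, Pcdh17 and Col15a1. Cluster 21 followed in the control library at 41.4 CPM (30.6–54.7), and the other 5 endothelial-like clusters lay at 2.80–14.1 CPM. Clusters 21, 2 and 0 of the ΔSftpc library lay at 23.2, 20.4 and 20.2 CPM, with intervals that overlap. Within cluster 10 the top 3 cells had 85, 82 and 52 Scgb3a1 UMIs in the control library and 74, 29 and 23 in the ΔSftpc library. The 7 and 12 cells of the cluster with at least 10 Scgb3a1 UMIs had the endothelial genes Cdh5 and Pecam1 in 7 of 7 and 12 of 12, Epcam in 0 and 1, and 0–2 and 0–8 Scgb1a1 UMIs each. Endothelial-like cells are therefore no background for Scgb3a1, and fibroblast-like cells had 2.37 CPM (1.55–3.47) and 8.67 CPM (6.59–11.2).

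**Figure D5:**
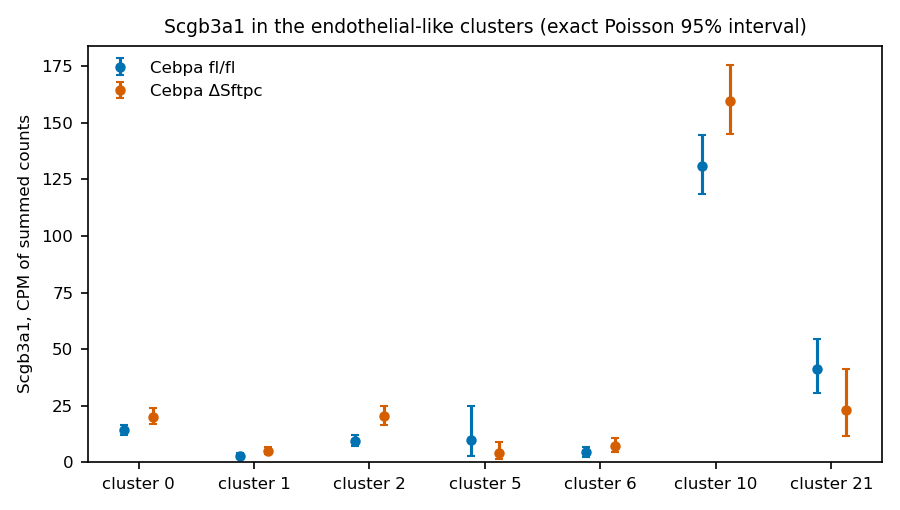
Scgb3a1 as CPM of summed counts (vertical axis) in each of the 7 endothelial-like clusters, control in blue and ΔSftpc in orange, with exact Poisson 95% intervals. Cluster 10 stands above the others in both libraries, at 131 and 160 CPM.

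The genes most like the 9 were sought by the percent of their UMIs in the secretory-high cells, taking the lower of the 2 libraries, over 14227 genes with at least 50 UMIs in each. Cldn10, a claudin of tight junctions, led with 28.9% and 55.1%, followed by Retnla, a secreted resistin-like protein, with 26.8% and 30.8%, and Lypd2 with 14.0% and 67.0%. Next came Cckar (11.5% and 46.1%), Pon1 (10.0% and 48.7%), Pigr, the receptor that carries immunoglobulin A across epithelium (9.50% and 63.6%), Hp (8.77% and 18.0%), the secretoglobin Scgb1c1 (8.27% and 17.3%), Mgat3 (7.69% and 40.6%) and Slc16a11 (7.64% and 44.1%). The median gene had 0.161% and 0.313%. Since the libraries' secretory-high cells were chosen by the 9 genes, a high share says only that these UMIs lay in the same cells.

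Of 34 listed club and mucous genes, 23 had at least 50 UMIs in each library, and 4 of these had at least 10% of their UMIs in the secretory-high cells of both. Among all 14227 genes with at least 50 UMIs in each library, 5 did. The median share over the 23 was 3.01% and 15.4%. Cbr2 (3.79% and 15.4%) and Aldh1a1, a retinaldehyde dehydrogenase (2.69% and 12.0%), were widely spread over other cells. Genes of goblet and mucous cells were scarce: Muc5ac, the other gel-forming mucin of the airway, had 0 and 17 UMIs, 16 of the 17 in secretory-high cells, and Tff2, a trefoil peptide of mucus, 11 and 349, of which 2 and 342 were in them. The chloride-channel subunit gene Gabrp had 16 and 169 UMIs, 12 and 145 of them there, and Ltf (lactoferrin) 31 and 109, of which 2 and 63. Bpifb9b, Reg3b and Upk3a had no UMI in either library. All 11 epithelial genes of the list had a UMI in the secretory-high cells of both libraries, at a median of 1.25% and 5.91% of their UMIs. The share of all genes with a UMI in these cells was not computed, so nothing is read from that count.

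Among 46 other genes of the secretoglobin, BPI-fold and Reg3 families, 39 had no UMI in either library. Bpifb5 had 159 and 29 UMIs and Bpifa2 154 and 50, none of them in a secretory-high cell, and Scgb1c1 was the one relative with UMIs in these cells. None of the 4 basal cell markers had a UMI in the control secretory-high cells. In those of the ΔSftpc library Krt5 had 44 of its 438 UMIs, 43 of them in 1 cell, Trp63 19 of 56, Ngfr 4 of 45 and Krt14 1 of 210, each of these 3 in 1 cell. Krt14 stood lower in the secretory-high cells than in the others, at 1.78 and 3.27 CPM. The neuroendocrine marker Calca had 0 of 366 and 1 of 82 UMIs in these cells.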

How the data were processed

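Whole lungs of both genotypes were digested to single cells, and 1 Chromium 3′ library per genotype was sequenced by the authors. They were live-sorted by the series design, while the study's methods name no sort. Per the labels, reads were aligned to mm10 with Cell Ranger 6.1.1 (the matrix header names 5.0.0). The deposited matrices hold raw UMI counts per gene and barcode, all of them whole numbers, and no unmapped columns were present (0).

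Kept cells had at least 200 genes and at most 20% mitochondrial UMIs, the limits named in the study. The study reports 11721 and 13373 cells after its filter, the numbers of deposited barcodes, so fewer cells were kept here. Clusters came from SCTransform, anchor integration of 2968 of 3000 variable genes (the 9 genes and the listed club and mucous genes removed), 30 principal components and Louvain resolution 0.5 (R 4.3.3, Seurat 5.3.0, sctransform 0.4.2). This gave 32 clusters. A cluster was named from marker lists when at least 3 markers were 2-fold above the other clusters, a rule set once the clusters had been looked at. It stayed unnamed when another type had more markers in its first 10 genes or owned its leading gene, or when it was shallow with no marker there. Cluster 28 had 7 AT2 markers 2-fold up and stayed unnamed as a shallow cluster. Secretory-high cells were left out of the profiles used for naming. Named types may differ from those of the study. Doublets were kept. The 9 genes, the lists and the thresholds were chosen with earlier results of these data known.

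Levels are CPM of counts summed per library and type, with exact Poisson intervals. Shares have Clopper-Pearson intervals (scipy 1.17.1), and log2 ratios have exact conditional intervals with counts under 3 raised to 3. A difference of 2-fold counted as called, over genes with at least 50 UMIs in both libraries together. The ratio and its interval were tested on simulated data. For shares at equal depth each cell was thinned to 1000 UMIs and shallower cells were left out. Besides the 9 genes, the text names the 10 genes with the largest share of their UMIs in secretory-high cells (lower of both libraries, at least 50 UMIs in each), genes of the lists, and defining markers beside a result they touch. Gene positions come from GENCODE M21, upstream sequences from RefSeq. Alternatives changed the cell filter, the depth, the doublet treatment (Scrublet in scanpy 1.11.5), the secretory-high threshold, the clustering, the thinning and the background type. The total was 69200420 UMIs in 11721 barcodes of the Cebpa fl/fl library and 64697396 in 13373 of the Cebpa ΔSftpc library.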

Additional observations from a re-analysis of the deposited data

How the results depend on the processing

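With 1 library per genotype, leaving out a library was not possible, and no result here has a replicate check. No paired analysis was possible because each genotype has 1 library and no result comes from a test. Of 51 values recomputed under the alternatives, 26 stayed within the counting interval of the reported value or, for numbers of cells, within 1.5 times of it, and 25 moved. No log2 ratio of the background changed sign. Without the 8% of cells with the highest Scrublet scores, the number of secretory-high cells was 13 in the Cebpa fl/fl and 1 in the Cebpa ΔSftpc library, and their share of UMIs was 81.8% and 11.2%. This setting removes 9 of the 10 cells that the description of the Cebpa ΔSftpc library rests on. The other settings kept 16–28 and 7–12 secretory-high cells. The share was 79.9% and 90.55% in cells of at least 500 genes with up to 10% mitochondrial UMIs, 82.1% and 92.9% in cells with at least 3000 UMIs and 83.3% and 90.6% at a threshold of 2%. At a threshold of 10% it was 78.3% in the Cebpa fl/fl library. The background level was 240.3 and 400.1 CPM in cells with at least 3000 UMIs, 248 and 434 CPM without integration, 280.0 and 495 CPM with cells thinned to 1000 UMIs and 233 and 407 CPM in fibroblast-like cells. In the Cebpa ΔSftpc library it was 414 CPM without the high Scrublet scores and 436 CPM at a resolution of 1.0. The log2 ratio of the background was 0.69 without the high Scrublet scores, 0.81 without integration, 0.82 with thinned cells and 0.81 in fibroblast-like cells. The cause of these shifts was not tested. Leaving out the top 2 cells of each library, chosen after seeing the data, moved the log2 ratio over all cells of 8 of the 9 genes outside its interval, and Bpifa1 stayed within it.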
